A study of Homo sapiens with 36 samples.

Results

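Messenger RNA of *TXNL1* knockout (KO) HEK-293T cells that expressed wild-type (WT) TXNL1 was compared with that of KO cells carrying the vector alone, both given the solvent DMSO and no oxidant. The comparison takes the 3 WT and the 3 vector libraries labelled DMSO, 6 of the 36 libraries of the series, chosen by their labels and not by any measured value. HEK-293T is a human embryonic kidney cell line, and every line in the series, controls included, carries the knockout of the endogenous gene. The other libraries of the series come from the same KO cells with TXNL1-DR-RD, a form mutated at its contacts with the proteasome, or TXNL1-SxxS, whose thioredoxin cysteines are replaced by serines, and from all 4 lines after hydrogen peroxide (H2O2) or arsenite. The KO cells were grown from a single sorted cell, and each line was made from them by lentiviral transduction. Replicates within a line are therefore samples of 1 transduced population, the p-values below measure the spread between such samples, and the effect of TXNL1 cannot be told apart from other differences between 2 lines grown separately.

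TXNL1 joins an N-terminal thioredoxin domain, which reduces disulfides in other proteins, to a C-terminal PITH domain that docks on the regulatory particle of the proteasome. The proteasome is the protease that degrades most short-lived and damaged proteins of the cytosol and nucleus, and its regulatory particle recognises, unfolds and feeds substrates into the catalytic core. A change in the RNA of a complemented line asks whether the presence of TXNL1 alters gene expression in cells that are not exposed to an added oxidant.

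The vector libraries held 53581560 to 59983836 counts and the WT libraries 42072410 to 65958385. Of 42726 genes with a count, 22486 had at least 10 counts over the vector libraries and were tested with edgeR's quasi-likelihood test over the 12 DMSO libraries. Levels are CPM values, that is, counts relative to the TMM-scaled library size, and a gene was called at a Benjamini-Hochberg adjusted p under 0.05. Of 7 markers of HEK293 cells, 5 were above 1 CPM on average. Most of their sum was *VIM*, a general mesenchymal gene, at 465 to 480 CPM in the vector and 462 to 488 CPM in the WT libraries, and *PAX2* was at most at 0.437 CPM, so these markers say little about identity. Markers of blood cells summed to at most 2.44 CPM, of hepatocytes to at most 0.369 CPM and of endothelium to at most 0.999 CPM, with *HBB* and *CDH5* at 0. Fibroblast markers, several of which HEK293 cells also express, summed to 17.3 to 23.6 CPM in the vector and 16.99 to 25.4 CPM in the WT libraries. The SD of the log2 values of the 6 libraries around their group median lay between 0.104 and 0.135. Pairs of WT replicates differed more than pairs of vector replicates. Their chi-square over degrees of freedom was 6.82, 13.6 and 7.29, against 3.18 to 4.82 in the vector line. Among treated WT libraries used further on, 2 stood apart by their SD: WT replicate 2 in H2O2, with an SD of 0.626, and WT replicate 1 in arsenite, with an SD of 0.549.

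*TXNL1* itself lies on the minus strand of chromosome 18 (GRCh38, 56597209 to 56651600), where its exons overlap those of *WDR7* on the other strand. The vector libraries had 32.2, 32.0 and 28.9 CPM of *TXNL1* and the WT libraries 53.8, 52.7 and 58.8 CPM. The groups did not overlap, and the WT line was 1.78-fold higher (log2 fold change 0.83 ± 0.06, the error being the SE, edgeR adjusted p = 7.02e-07). Reads on the gene thus remained in the vector line, and the counts do not separate RNA of the edited locus from RNA of the introduced copy. After H2O2 it was at 31.6, 30.9 and 32.3 CPM in the vector and at 55.1, 54.5 and 57.9 CPM in the WT libraries (log2 fold change 0.84 without WT replicate 2). After arsenite it was at 70.7, 66.1 and 66.8 CPM against 108, 94.9 and 94.5 CPM (0.48 without WT replicate 1). DR-RD had 66.9, 59.7 and 63.6 CPM in DMSO, above every WT value, and SxxS had 55.8, 54.3 and 52.2 CPM, overlapping the WT values. No transcript of the 3 proteasome subunits that TXNL1 touches was called: *PSMD1*, a scaffold of the regulatory particle, differed by 0.08 ± 0.04 (adjusted p = 0.466), *PSMD4*, a ubiquitin receptor, by 0.07 ± 0.06 (adjusted p = 0.687) and *PSMD14*, a deubiquitinase, by 0.12 ± 0.05 (adjusted p = 0.294), on the log2 scale by edgeR. *PITHD1*, the other human protein with a PITH domain, differed by -0.03 ± 0.05 on the same scale (adjusted p = 0.865).

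Across the transcriptome, 184 genes (0.818% of those tested) were called, 20 of them higher (0.0889%) and 164 lower (0.729%) with WT TXNL1. Most differences were small. The median log2 fold change was 0.26 among the higher and -0.48 among the lower genes, 21 lower genes fell at least 2-fold and no higher gene rose that much. For all 184 genes the 3 WT and 3 vector values did not overlap, a pattern also seen, in one direction or the other, for 11% (WT below vector) and 8.63% (WT above vector) of all tested genes. The called genes comprised 153 protein-coding genes, 25 lncRNAs and 6 of other classes. Exons of 102 of them overlapped another gene (55.4%, against 56.9% of all tested genes), where reads may be shared. The count rested on single libraries, since without WT replicate 2 it fell to 21, without vector replicates 2 or 3 to 36 and 44, without WT replicate 3 to 50, and in a fit of all 36 libraries to 44. Of 48 called genes that were named by rule or added after their values were seen, 27 were not called over 36 libraries, among them *CELF2* (adjusted p = 0.282), *CARMIL2* (0.322), *PCK2* (0.109) and *MAT2A* (0.182). Without DR-RD replicates 1 or 3, which bear only on the estimate of spread, it was 348 and 751, without DR-RD replicate 2 it was 115, and without SxxS replicate 1 it was 111.

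Several of the genes that fell encode secreted proteins, as do *EMILIN2*, *CCN1* and *CCN2* among those that rose. *LPL* (chromosome 8, 19901717 to 19967259, plus strand) encodes lipoprotein lipase, which releases fatty acids from circulating lipoproteins. It had 1.89, 2.08 and 1.86 CPM in the vector and 0.697, 0.433 and 0.660 CPM in the WT libraries, so that every WT value was below every vector value, and it fell 3.18-fold (log2 fold change -1.67 ± 0.22, edgeR adjusted p = 0.00125). *IGFBP2* (chromosome 2, 216632828 to 216664436, plus strand) encodes a secreted protein that binds insulin-like growth factors. Its levels were 19.3, 20.6 and 18.7 CPM against 7.56, 6.58 and 9.23 CPM, again without overlap, a 2.49-fold fall (log2 fold change -1.32 ± 0.13, edgeR adjusted p = 0.000119). *SERPINF1*, which encodes the secreted pigment epithelium-derived factor, was nearly constant in the vector line at 49.0, 49.2 and 49.1 CPM. In the WT line it was at 33.3, 36.4 and 35.8 CPM, 1.40-fold lower (adjusted p = 0.000616 by edgeR). *SELENOP*, which encodes the selenium transport protein of plasma, fell 1.72-fold from 3.59, 2.66 and 2.97 CPM to 1.72, 1.54 and 2.06 CPM (edgeR adjusted p = 0.0166). Its exons overlap those of *CCDC152* on the other strand, which fell 1.95-fold and was called in 1 of the 6 fits without a compared library (adjusted p up to 0.137), and reads of the pair cannot be told apart unless strand was used in counting. *SELENOP*, named after its values were seen, was not called without vector replicates 1 or 3 or WT replicates 1 or 2 (adjusted p up to 0.121).

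*ARNT2*, which encodes a bHLH-PAS transcription factor, had 4.66, 4.72 and 4.94 CPM in the vector and 1.88, 2.96 and 1.89 CPM in the WT libraries, a 2.16-fold fall (log2 fold change -1.11 ± 0.15, edgeR adjusted p = 0.00126). *CELF2*, a splicing regulator, fell 1.64-fold from 6.52, 6.81 and 6.48 CPM to 4.11, 4.06 and 3.93 CPM (edgeR adjusted p = 0.000616). *TSC22D3*, the glucocorticoid-induced leucine zipper protein, fell 1.52-fold from 42.2, 44.1 and 38.7 CPM to 27.04, 27.8 and 27.3 CPM (edgeR adjusted p = 0.000119). In each of these genes the groups did not overlap. *INSIG1*, which encodes a protein of sterol control in the endoplasmic reticulum, fell 1.26-fold from 94.1, 92.5 and 84.0 CPM to 73.6, 71.5 and 69.3 CPM (edgeR adjusted p = 0.00547). *JUN*, a subunit of the AP-1 transcription factor, fell 1.26-fold from 108, 115 and 122 CPM to 94.0, 89.0 and 89.6 CPM (edgeR adjusted p = 0.00629). *JUN* was not called without vector replicate 3 or WT replicate 2 (adjusted p up to 0.0701).

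Of the 20 higher genes, *TXNL1* had the largest rise. *EMILIN2* (chromosome 18, 2847006 to 2916003, plus strand), which encodes a glycoprotein of the extracellular matrix, had the smallest p after *TXNL1*. It was at 53.7, 51.5 and 53.4 CPM in the vector and at 72.6, 75.4 and 76.3 CPM in the WT libraries, 1.41-fold higher (log2 fold change 0.50 ± 0.05, edgeR adjusted p = 8.06e-05). *CARMIL2*, which encodes a regulator of actin filament capping, rose 1.44-fold from 6.90, 6.79 and 7.50 CPM to 10.9, 9.35 and 10.1 CPM (edgeR adjusted p = 0.00580). It was not called without vector replicate 2 (adjusted p = 0.0542). *CCN2* and *CCN1*, which encode matricellular proteins, rose 1.70-fold and 1.25-fold, with *CCN2* at 4.36, 3.66 and 5.03 CPM against 7.44, 8.24 and 6.54 CPM. *CCN2* lost its call without vector replicate 2 or WT replicate 2 (adjusted p up to 0.113), and *CCN1* was called in only 1 of the 6 fits that left out a compared library. *DPYSL3*, which encodes a cytoskeletal phosphoprotein, rose 1.69-fold and *TIPARP*, a mono-ADP-ribosyltransferase, 1.33-fold. *SRSF5*, a splicing factor, rose from 99.5, 96.5 and 94.0 CPM to 114, 116 and 119 CPM (log2 fold change 0.27, edgeR adjusted p = 0.00572). The other higher genes named by rule changed less, with *ZNF814* at 1.34-fold, *ZCCHC12* at 1.23-fold, *CA2* at 1.19-fold, *LEO1* at 1.17-fold and *LDHA* at 1.13-fold, and *LDHA*, *CA2*, *LEO1* and *CCN1* were not called with an offset for GC content. Without 1 of the 6 compared libraries *DPYSL3*, *ZNF814* and *CA2* were called in 0 of 6 fits, *LEO1* and *LDHA* in 1, *TIPARP* and *ZCCHC12* in 2, and *SRSF5* in 5.

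Whether these differences recurred was asked in the treated WT and vector libraries, which have controls of their own. In arsenite, 182 of the 184 genes (98.9%) had the same sign as in DMSO, against 59.7% of all tested genes, and 111 were called there, where 5.22% of all genes were called. These values leave out WT replicate 1. With it, 150 genes (81.5%) had the same sign and 6 were called, where 0.0756% of all genes were. In H2O2, only 83 genes (45.1%) had the same sign without WT replicate 2, against 51.2% of all genes, and 67 (36.4%) with it. The higher and lower genes parted there: 19 of 20 higher genes were again higher, and 64 of 164 lower genes were again lower.

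With those libraries left out, 17 genes were called in the same direction in DMSO, H2O2 and arsenite, where 0.169% and 5.22% of all genes were called in the treated pairs. With all libraries, where 0.00445% of genes were called in H2O2, only *TXNL1* was. The 17 were *TXNL1*, *EMILIN2* and *CARMIL2*, which rose, and *LPL*, *IGFBP2*, *ARNT2*, *CELF2*, *TSC22D3*, *SERPINF1*, *SELENOP*, *MAMLD1*, *PCK2*, *EEF1A2*, *BACE2*, *MRC2*, *ASNS* and the lncRNA ENSG00000284707, which fell. *IGFBP2* had log2 fold changes of -1.32, -1.15 and -1.01 in the 3 conditions, *LPL* of -1.67, -1.21 and -1.44, *ARNT2* of -1.11, -1.06 and -1.44, and *EMILIN2* of 0.50, 0.28 and 0.28. Those named only for meeting this criterion, and so chosen after their values were seen, were *MAMLD1* (2.33-fold lower in DMSO), *PCK2* (1.42-fold), *EEF1A2* (1.26-fold), *BACE2* (1.26-fold), *MRC2* (1.25-fold) and the lncRNA (1.21-fold). *MAMLD1* encodes a mastermind-like nuclear protein, *EEF1A2* a translation elongation factor, *BACE2* an aspartyl protease and *MRC2* an endocytic collagen receptor. Exons of *ARNT2*, *TSC22D3*, *EMILIN2*, *CARMIL2* and *MRC2*, like those of *TXNL1* and *SELENOP*, overlap exons on the other strand, where reads may be shared. Without 1 of the 6 compared DMSO libraries *MRC2* was called in 0 of 6 fits, and *MAMLD1* and *BACE2* in 1. *EEF1A2*, which also lost its call without WT replicate 2 (adjusted p = 0.0701), and *MRC2* were not called with the GC offset.

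**Figure D1:**
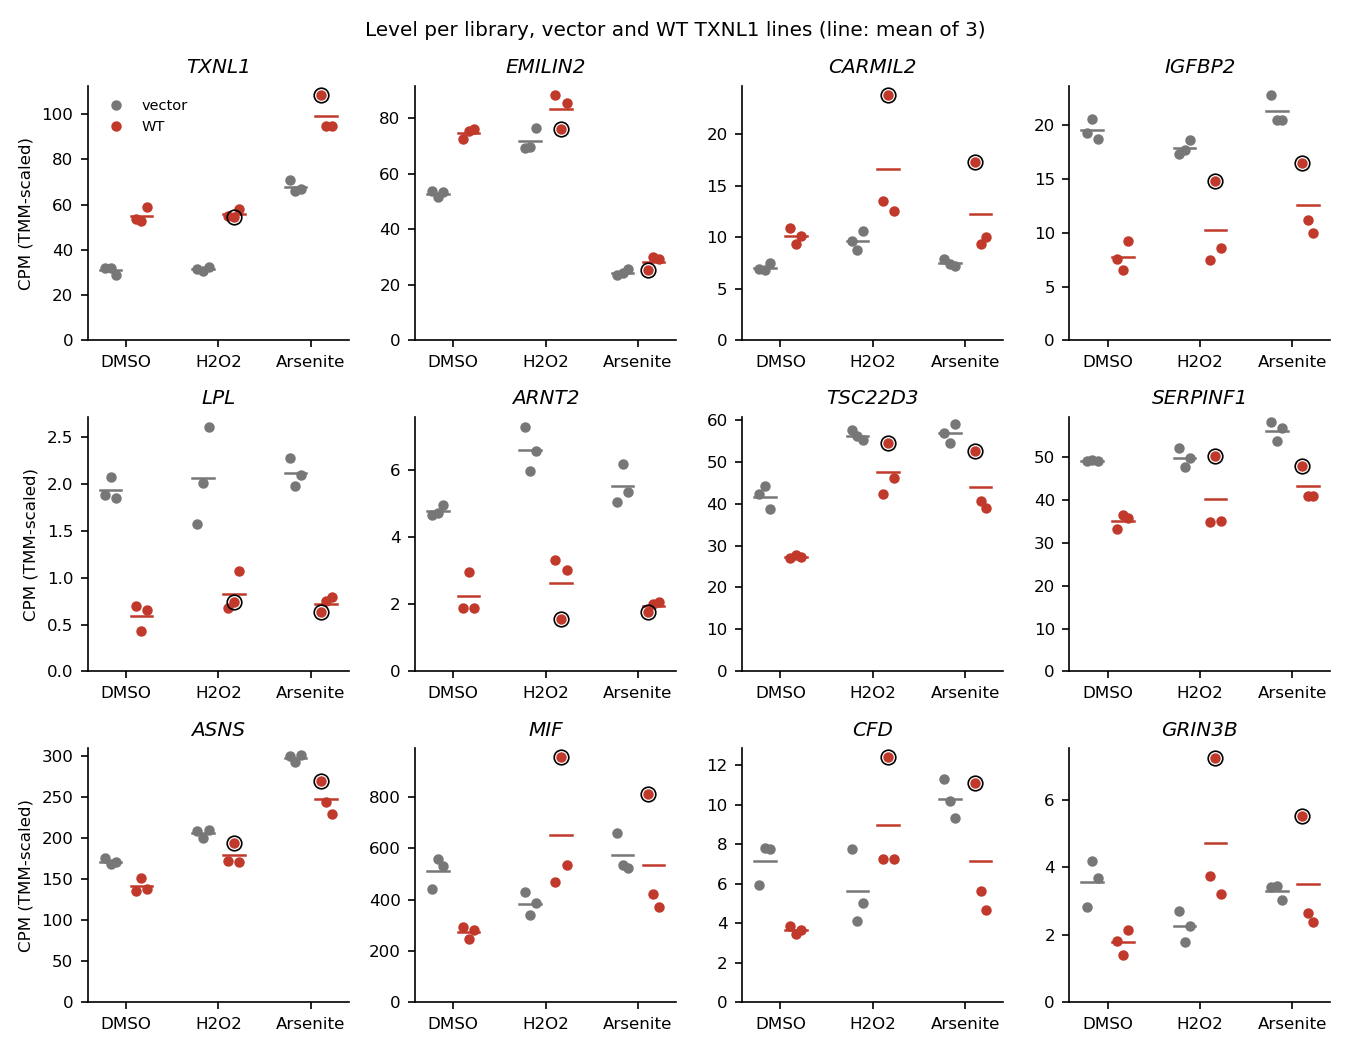
Levels of 12 genes in every vector (grey) and WT (red) library after DMSO, H2O2 or arsenite, in CPM on TMM-scaled library sizes, with 1 point per library, a line at the mean of 3 and an open black circle around the 2 WT libraries that stand apart. *LPL* and *ARNT2* were lower in every WT library of each condition, while *MIF*, *CFD* and *GRIN3B* were lower in every WT library in DMSO but not on average in H2O2.

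*ASNS* (chromosome 7, 97851677 to 97872542, minus strand), asparagine synthetase, had 176, 168 and 170 CPM in the vector and 135, 152 and 138 CPM in the WT libraries. This was a 1.21-fold fall with no overlap (log2 fold change -0.27 ± 0.05, edgeR adjusted p = 0.00780), and it was not called without WT replicate 3 (adjusted p = 0.0521). The exons of *ASNS* overlap those of the lncRNA ENSG00000284707 on the same strand, and the near-equal values of that lncRNA, 177, 170 and 172 CPM against 137, 152 and 140 CPM, cannot be told apart from those of *ASNS*. In H2O2 *ASNS* was at 208, 201 and 210 CPM against 172, 195 and 171 CPM, and in arsenite at 300, 292 and 301 CPM against 269, 244 and 229 CPM, so WT values were below vector values in all 3 conditions. *PCK2*, the mitochondrial phosphoenolpyruvate carboxykinase, fell from 10.4, 11.1 and 11.1 CPM to 7.40, 7.54 and 8.09 CPM (edgeR adjusted p = 0.00580), a call that was lost without WT replicate 2 (adjusted p = 0.0529). *MAT2A*, which makes the methyl donor S-adenosylmethionine, fell 1.22-fold from 407, 408 and 428 CPM to 333, 342 and 346 CPM (edgeR adjusted p = 0.00304). It was named after its values were seen. In arsenite its log2 fold change was 0.07 (edgeR adjusted p = 0.395), and the test of that change called 0.0267% of all genes, *MAT2A* among them. Its exons overlap those of *GGCX*. Of 14 tested genes on a list of *ATF4* and genes that this transcription factor controls, which does not hold *PCK2*, *ASNS* was the only one called. *ATF4* differed by -0.05 on the log2 scale. The list median was -0.07 with 10 of 14 below 0, and the lowest member stood at -0.59 and was not called. With the GC offset 1 member was called higher and 1 lower.

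Gene lists assembled for the functions of TXNL1 held few called members. The counts below are of tested genes, the median log2 fold change over all tested genes was -0.0018, and 0.818% of them were called. None of 48 genes for the proteasome and its assembly factors was called (median 0.06). Their subgroups had medians of 0.08 for the 6 ATPases of the regulatory particle, 0.06 for its 13 other subunits, 0.08 for the 7 subunits of the alpha ring, -0.01 for the 7 of the beta ring, 0.05 for the 9 assembly factors, 0.0027 for the 4 activators (-0.12 to 0.16) and -0.12 for the 2 immunoproteasome genes (-0.35 and 0.11). All 6 ATPase transcripts were above 0, between 0.04 and 0.13, and the smallest adjusted p among them was 0.26. None of 16 genes of the thioredoxin and glutaredoxin system was called (median 0.05), with *TXN* at 0.04, the reductase gene *TXNRD1* at 0.07 and *TXNIP*, which encodes a thioredoxin inhibitor, at 0.06. None of 11 genes for peroxide removal (median 0.0005) and none of 12 for the NRF2 response (median 0.03) was called, with the NRF2 targets *HMOX1* at -0.07, *GCLM* at 0.13 and *SRXN1* at 0.10. The same held for 12 heat shock genes (median -0.03), 9 of endoplasmic reticulum stress (-0.07), 3 metallothionein genes with 2 for their regulator and a zinc exporter (-0.04), 12 p53 targets (-0.0004), 20 targets of BMP, Wnt, Notch and Hedgehog signalling (-0.03), 16 genes of G2 and mitosis (0.05) and 16 of S phase (-0.0040). The 13 mitochondrially encoded genes had a median of 0.09 and none was called. All 20 ribosomal protein genes were below 0 with a median of -0.07, and none was called. A missed threshold does not show that these genes did not differ.

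In the remaining lists, 1 to 3 members were called. *IGFBP2* was the only one called of 17 genes of the insulin-like growth factor axis, whose median was -0.08. In that list the receptor gene *IGF1R* differed by 0.02, the adaptor gene *IRS4* by 0.12 and *IGFBP5* by -0.21 on the log2 scale. The lowest member stood at -2.04 and was not called. *LPL* was the only one of 13 for lipases and lipoprotein uptake, where *APOE* differed by -0.52 (edgeR adjusted p = 0.0792, not called). The median of this list was -0.16, with 12 of 13 below 0. *INSIG1* was the only one called of 12 genes for sterol synthesis (list median -0.06). *JUN* was the only one called of 13 immediate early genes, with *FOS* at 0.04. The median of the latter list was -0.13, with 8 of 13 below 0 and a member that was not called at -0.90. *IFI6*, an interferon-induced mitochondrial protein, fell 1.61-fold and was the only one called of 11 interferon response genes. *GAP43*, which encodes a growth cone protein, fell 1.45-fold and was the only one called of 9 neuronal genes. The median of that list was -0.26, with 7 of its 9 genes below 0. *LDHA* was the only one called of 11 hypoxia and glycolysis genes. *IFI6* was called in 2 and *GAP43* in 0 of the 6 fits that left out a compared library (adjusted p up to 0.22 and 0.166). Of 18 matrix and adhesion genes *CCN1* and *CCN2* rose and *COL6A1* fell, with *FN1* at -0.08 and *COL4A1* at 0.14.

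**Figure D2:**
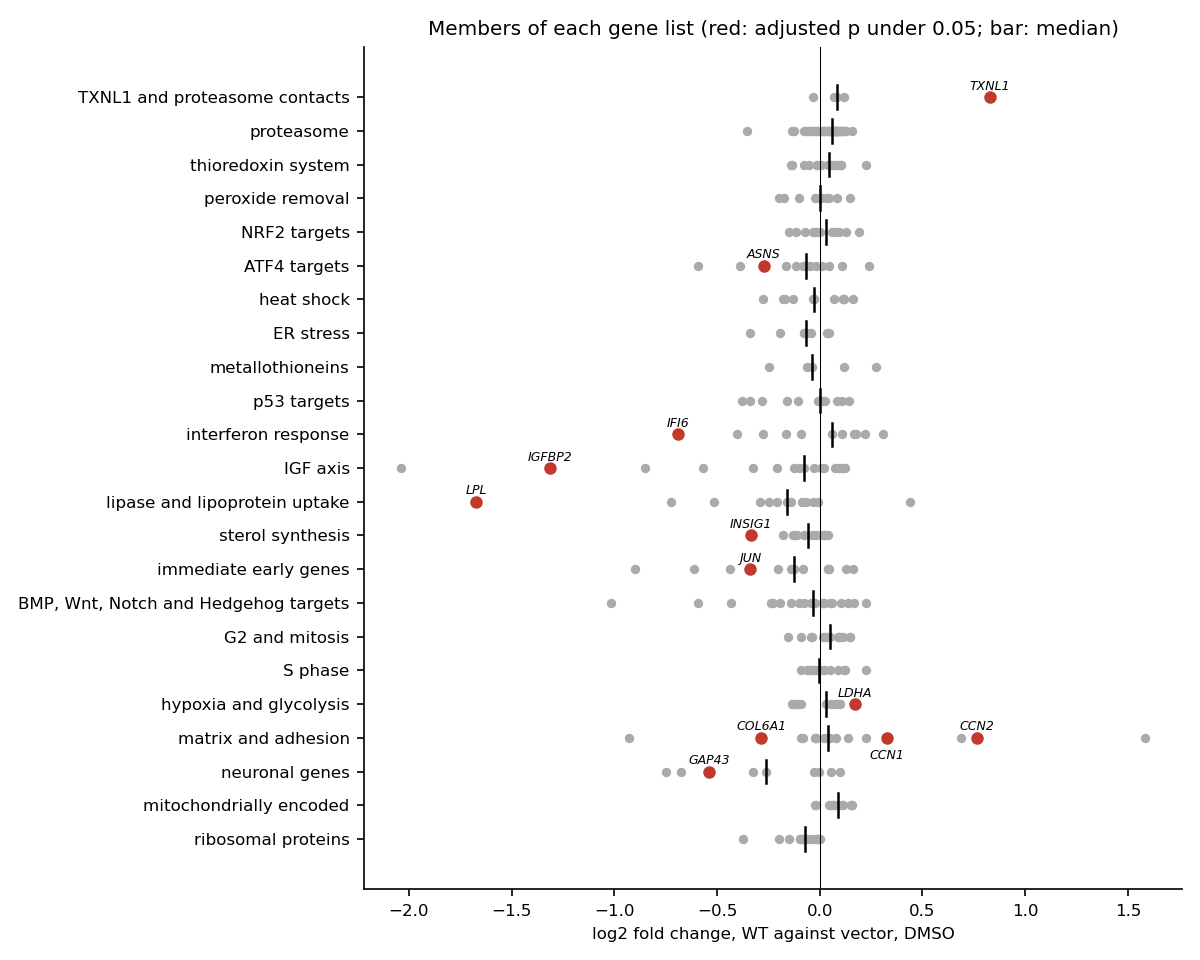
Log2 fold change of WT against vector in DMSO for every tested member of 23 gene lists, with called genes in red and named, other members in grey, and a black bar at the median of the list. Medians lie between -0.26 (neuronal genes) and 0.09 (mitochondrially encoded genes), and in no list were more than 3 members called.

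The lower genes were rich in G and C. The median GC content of the longest transcript was 61.5% for the 164 lower genes, 43.3% for the 20 higher genes and 48.3% for all tested genes. Of the lower genes, 114 lay in the upper quartile of GC content, 2.03% of its genes, and 6 in the lower quartile. The shift was not confined to called genes, since the median log2 fold change of the upper quartile was -0.08 and of the lower 0.04. It differed between libraries: the median of the highest GC decile minus that of the lowest was -0.18, -0.25 and -0.09 in WT replicates 1, 2 and 3, and between -0.05 and 0.03 in the vector libraries. With an offset for GC content per library 180 genes were called, 36 higher and 144 lower, of which 117 were among the 184. The median GC content was then 55.5% for the lower and 59.1% for the higher genes, so both lay above that of all tested genes.

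The 12 protein-coding genes with the largest falls show both ends of this range. The first bases of the reading frame are printed for the 3 of highest GC content and, *LPL* aside, the 3 of lowest, as lower case a and t and capital G and C (GENCODE release 44, GRCh38), beside the GC content of the longest transcript, which is the measure used here.
*PCSK1N* (X, 48832336 to 48835532, minus strand, 77.5% G or C): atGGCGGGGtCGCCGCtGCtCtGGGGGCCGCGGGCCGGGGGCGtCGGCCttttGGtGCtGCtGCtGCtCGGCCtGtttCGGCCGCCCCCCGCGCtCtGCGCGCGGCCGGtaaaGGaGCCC
*C4orf48* (4, 2042352 to 2042471, plus strand, 81.7% G or C): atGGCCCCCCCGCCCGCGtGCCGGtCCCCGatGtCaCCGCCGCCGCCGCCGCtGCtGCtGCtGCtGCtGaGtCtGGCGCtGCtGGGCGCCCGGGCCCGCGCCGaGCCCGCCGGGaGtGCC
*GRIN3B* (19, 1000438 to 1000557, plus strand, 80.0% G or C): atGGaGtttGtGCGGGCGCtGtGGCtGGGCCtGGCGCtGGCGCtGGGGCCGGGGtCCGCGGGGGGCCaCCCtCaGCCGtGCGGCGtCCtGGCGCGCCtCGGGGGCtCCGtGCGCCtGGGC
*ARNT2* (15, 80404516 to 80450968, plus strand, 65.8% G or C): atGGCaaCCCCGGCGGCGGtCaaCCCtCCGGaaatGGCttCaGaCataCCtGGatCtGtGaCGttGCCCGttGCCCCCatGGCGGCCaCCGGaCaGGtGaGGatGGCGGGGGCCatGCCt
*DGKK* (X, 50470559 to 50470678, minus strand, 75.8% G or C): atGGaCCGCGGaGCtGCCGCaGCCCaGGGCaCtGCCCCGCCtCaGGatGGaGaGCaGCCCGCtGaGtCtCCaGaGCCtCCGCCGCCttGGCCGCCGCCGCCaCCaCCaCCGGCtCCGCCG
*CCDC152* (5, 42759122 to 42762475, plus strand, 32.5% G or C): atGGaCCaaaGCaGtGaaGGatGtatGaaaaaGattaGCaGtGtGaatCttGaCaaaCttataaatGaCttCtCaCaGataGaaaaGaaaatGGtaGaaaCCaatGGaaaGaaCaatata
Over the longest transcript the values were 74.2% for *PCSK1N*, 73.2% for *C4orf48*, 70.3% for *GRIN3B*, 52.1% for *ARNT2*, 46.9% for *DGKK* and 36.01% for *CCDC152*. The printed start does not track the whole transcript, since that of *DGKK* is nearly as rich in G and C as that of *PCSK1N*.

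The 3 GC-rich genes were lower with WT in DMSO and above 0 in H2O2, while *CCDC152* had log2 fold changes of -0.97 in DMSO and -0.85 in H2O2. *PCSK1N*, which encodes a neuroendocrine peptide precursor, had 2.16, 3.93 and 2.73 CPM in the vector and 1.06, 0.937 and 1.03 CPM in the WT libraries, a 2.89-fold fall (edgeR adjusted p = 0.00759). In H2O2 its WT values were 2.45, 3.98 and 3.10 CPM against 2.58, 0.984 and 1.79 CPM. *GRIN3B*, a glutamate receptor subunit gene, fell 1.96-fold from 2.84, 4.19 and 3.68 CPM to 1.81, 1.42 and 2.15 CPM, and stood in H2O2 at 3.74, 7.25 and 3.22 CPM with WT against 2.72, 1.80 and 2.27 CPM. *C4orf48* fell 2.12-fold from 2.86, 3.64 and 2.60 CPM to 1.46, 1.27 and 1.54 CPM. It was not called with the GC offset or in any of the 6 fits without a compared library (adjusted p up to 0.211).

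More abundant members of this group were *MIF*, which encodes a cytokine, and *CFD*, the serine protease complement factor D. *MIF* fell 1.86-fold from 443, 558 and 532 CPM to 295, 246 and 283 CPM (edgeR adjusted p = 0.0435), and was called in 1 of the 6 fits without a compared library (adjusted p up to 0.183). *CFD* fell 1.94-fold from 5.96, 7.80 and 7.74 CPM to 3.89, 3.48 and 3.67 CPM (edgeR adjusted p = 0.00322) and kept its call in all 6. Neither gene was called with all 36 libraries (adjusted p = 0.142 for *CFD* and 0.0999 for *MIF*), nor *MIF* with the replicate block. In H2O2 the WT values of *MIF* were 469, 955 and 535 CPM against 430, 339 and 385 CPM, and those of *CFD* 7.26, 12.4 and 7.24 CPM against 7.75, 4.13 and 5.01 CPM, so that neither was lower with WT on average. *TUSC1* (1.80-fold), *REX1BD* (1.75-fold) and the lncRNAs *IER5L-AS1* (3.31-fold), *PRKAR2A-AS1* (2.56-fold), ENSG00000269371 (2.30-fold) and ENSG00000245768 (2.24-fold) fell in DMSO in the same way and were above 0 in H2O2, between 0.43 and 0.81 on the log2 scale. Each of these 4 lncRNAs overlaps exons of another gene, among them *IER5L*, *PRKAR2A*, *ZNF358* and *GOT2*. Of the largest falls, *DGKK*, which encodes a diacylglycerol kinase, was 2.54-fold lower in DMSO and had log2 fold changes of -0.91 in H2O2 and -1.03 in arsenite. *MIF*, *TUSC1*, *DGKK* and ENSG00000269371 were called in 1 of the 6 fits without a compared library, *IER5L-AS1*, *PRKAR2A-AS1* and ENSG00000245768 in 2, *GRIN3B* and *REX1BD* in 3 and *PCSK1N* in 4.

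Among the 164 lower genes, the 64 that were also lower in H2O2 had a median GC content of 55.0% and the 100 that were higher in H2O2 one of 62.9%. The test of the difference between the WT effects in H2O2 and in DMSO, made over 34 libraries without the 2 that stand apart, called 90 of those 100 and 0 of the 64, where 1.12% of all genes were called. These sets were defined by their signs in the same libraries, which largely fixes that contrast, so no conclusion is drawn from it. Both sets were lower in arsenite, 62 of 64 and 100 of 100. The composition of the treated libraries moved with this: the highest GC decile minus the lowest was 0.08 and 0.09 in the WT libraries in H2O2 other than replicate 2, and -0.08 and -0.10 in those in arsenite other than replicate 1. In the libraries that stand apart it was 1.03 and 0.54. The part of library composition in these falls was not tested. *IGFBP2*, *LPL*, *ARNT2*, *TSC22D3* and *SERPINF1* were called with the offset for GC content as well, with log2 fold changes of -1.29, -1.71, -1.12, -0.61 and -0.46.

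**Figure D3:**
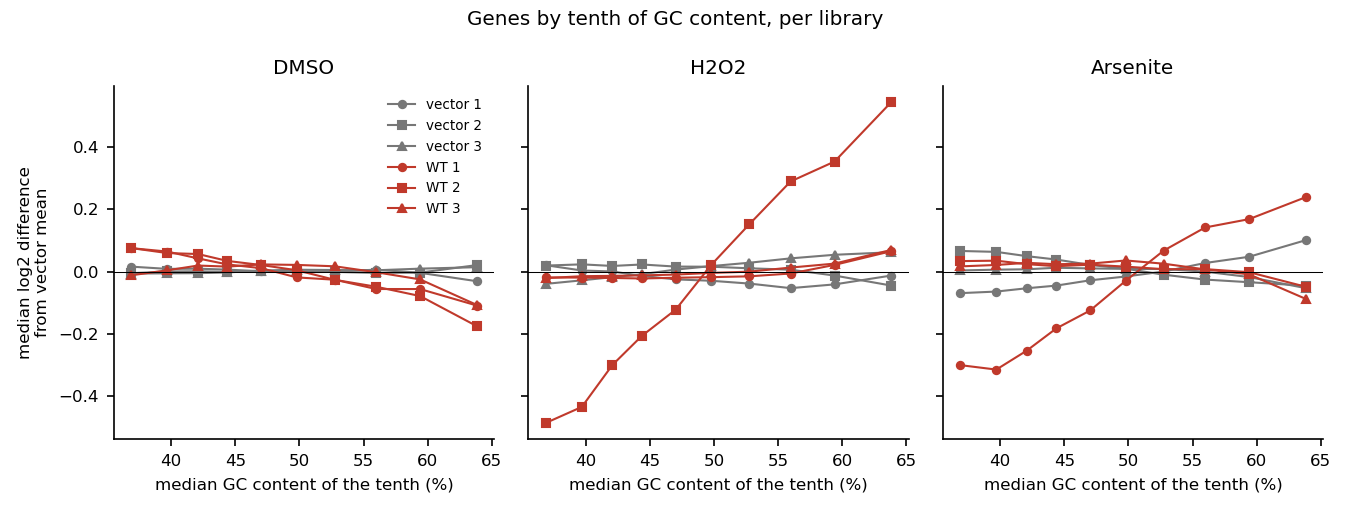
Median log2 difference from the mean of the vector libraries of the same treatment (vertical axis), for deciles of genes ordered by the GC content of their longest transcript (horizontal axis, %), with 1 line per vector (grey) or WT (red) library. WT lines slope down in DMSO, by 0.09 to 0.25 from the lowest to the highest decile, and the WT libraries that stand apart slope up by 1.03 in H2O2 and 0.54 in arsenite.

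**Figure D4:**
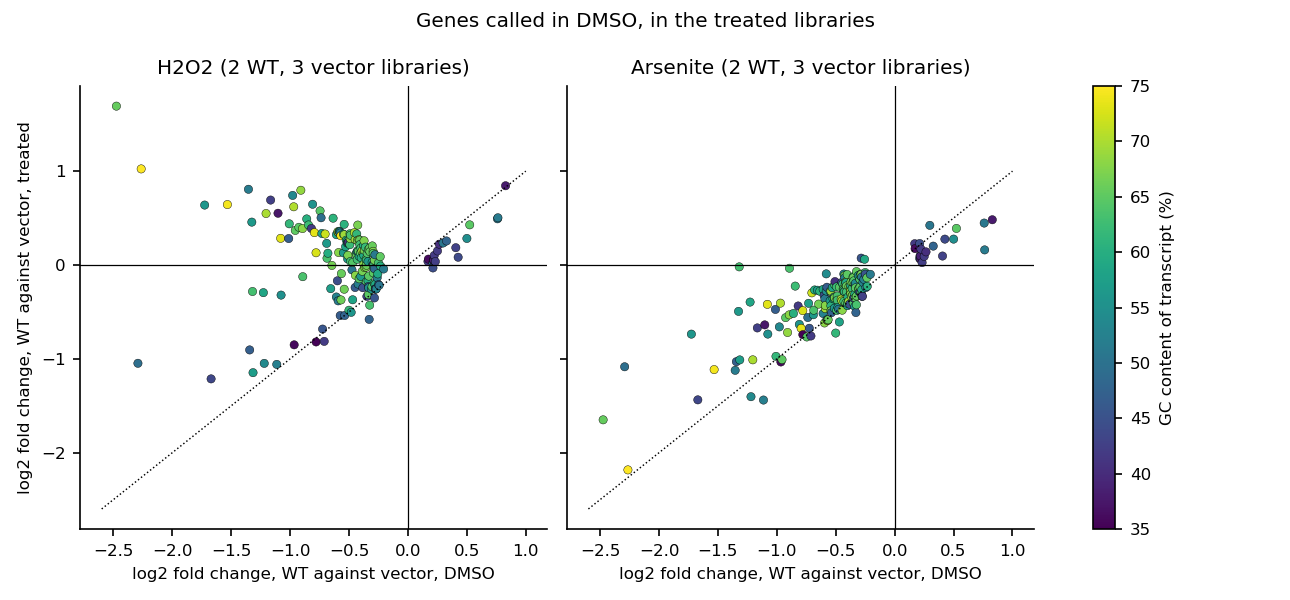
Log2 fold change of WT against vector in H2O2 (left) and arsenite (right) against that in DMSO for the 184 genes called in DMSO, coloured by GC content, without the 2 WT libraries that stand apart. The dotted line marks equal values. In arsenite 182 genes keep their sign. In H2O2 100 of the 164 lower genes lie above 0, with a median GC content of 62.9% against 55.0% for the 64 below 0.

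The mutant lines give a further reference, although they share the vector control and, in the test below, the WT libraries. WT was compared with the mean of DR-RD and SxxS, which called 310 genes (1.38%), 24 higher and 286 lower. In DMSO the highest GC decile minus the lowest was -0.16, 0.0017 and 0.23 in DR-RD replicates 1, 2 and 3. It lay between -0.01 and 0.05 in SxxS. DR-RD replicate 3, which thus sloped opposite to the WT libraries, had an SD around the group median of 0.194. Without it 403 genes were called. The part of these slopes in the calls was not tested. *EMILIN2* was 0.36 higher in WT than in the mean of the mutants on the log2 scale (edgeR adjusted p = 0.000893), with 49.5, 53.4 and 49.7 CPM in DR-RD and 65.7, 64.1 and 70.7 CPM in SxxS. The DR-RD values overlapped those of the vector, and the SxxS values lay between vector and WT. *TSC22D3* (-0.28, edgeR adjusted p = 0.0192), *SERPINF1* (-0.23, 0.0283), *ASNS* (-0.29, 0.00172), *PCK2* (-0.34, 0.0196) and *EEF1A2* (-0.21, 0.0312) were likewise apart from the mean of the mutants. Against vector, *ASNS* had log2 fold changes of -0.27 in WT, 0.18 in DR-RD and -0.14 in SxxS, *SERPINF1* of -0.48, -0.10 and -0.39, and *TSC22D3* of -0.61, -0.17 and -0.48. *PCK2* stood at -0.50, 0.02 and -0.34 and *EEF1A2* at -0.34, -0.05 and -0.20. In each of these genes SxxS lay nearer to WT than DR-RD did. *MAT2A* stood at -0.28, 0.11 and -0.30.

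For other genes the test against the mutants made no call. *IGFBP2* had 8.64, 8.93 and 12.1 CPM in DR-RD and 7.58, 8.16 and 9.34 CPM in SxxS, near the WT values, and WT differed from the mean of the mutants by -0.20 on the log2 scale (edgeR adjusted p = 0.498). The same comparison gave -0.49 for *LPL* (adjusted p = 0.33), -0.11 for *ARNT2* (0.804), -0.07 for *CELF2* (0.799), -0.20 for *MAMLD1* (0.808) and -0.03 for *BACE2* (0.891), all by edgeR. Among the GC-rich genes, *CFD* differed by -1.01 (adjusted p = 0.000893) and *MIF* by -0.90 (0.0196), and *PDLIM7*, a LIM domain gene chosen after its values were seen, by -0.47 (0.000893). With the GC offset that comparison called 138 genes in place of 310.

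Position on the chromosomes was examined for the 14057 genes of higher level. The median log2 difference between WT and vector over the 133 genes of chromosome 21 was -0.08, with 79.7% of its genes below 0, against 0.0031 and 48.8% over all genes. Each WT library showed it, at -0.11, -0.08 and -0.10, and the vector libraries lay between -0.0051 and 0.0063. The mutant lines had values in the same range, -0.09 to -0.07 in DR-RD and -0.10 to -0.09 in SxxS, so that in DMSO the vector libraries lay above those of all 3 other lines. The chromosome was singled out for this separation in the same libraries, so no test is given. Of 238 tested genes of chromosome 21, 10 were called and all were lower (4.20%), among them *COL6A1*, *COL6A2*, *BACE2*, *PFKL* and *SLC19A1*. Their GC content was 63.5%, 66.4%, 47.7%, 64.1% and 62.9%. In H2O2 without WT replicate 2, *CBR1-AS1* and ENSG00000289001, whose positions overlap, were both at 0.26, *SLX9* at 0.0047 and *SLC19A1* at 0.02. The others called were below 0 there. In DMSO *SLC19A1* was at -0.01 in DR-RD and -0.06 in SxxS, and *BACE2* at -0.28 and -0.31. *COL6A2* and *COL6A1* encode chains of type VI collagen. *COL6A2* was 1.46-fold lower at 22.4, 26.0 and 23.7 CPM against 17.1, 16.4 and 16.1 CPM (edgeR adjusted p = 0.00126), and *COL6A1* 1.22-fold lower at 74.3, 73.0 and 73.6 CPM against 60.8, 58.8 and 61.6 CPM (adjusted p = 0.00572). *COL6A1* was not called with the GC offset or without WT replicate 2 (adjusted p = 0.0639). *COL6A2*, which like the other genes of this paragraph except *COL6A1* is named after its values were seen, kept its call in all of these fits.

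The far end of the long arm of chromosome 11, from 105 Mb onwards, lay in the other direction. Over its 152 genes the medians were 0.07, 0.07 and 0.07 in the 3 WT libraries and between -0.02 and 0.02 in the vector libraries in DMSO, and between 0.04 and 0.08 in the libraries of both mutant lines. This segment too was chosen for its shift, and no test is given. These shifts amount to a few percent per gene, less than the falls of the called genes. Their cause was not tested, and a difference in the number of copies of a chromosome segment and a difference in expression cannot be told apart from these counts.

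**Figure D5:**
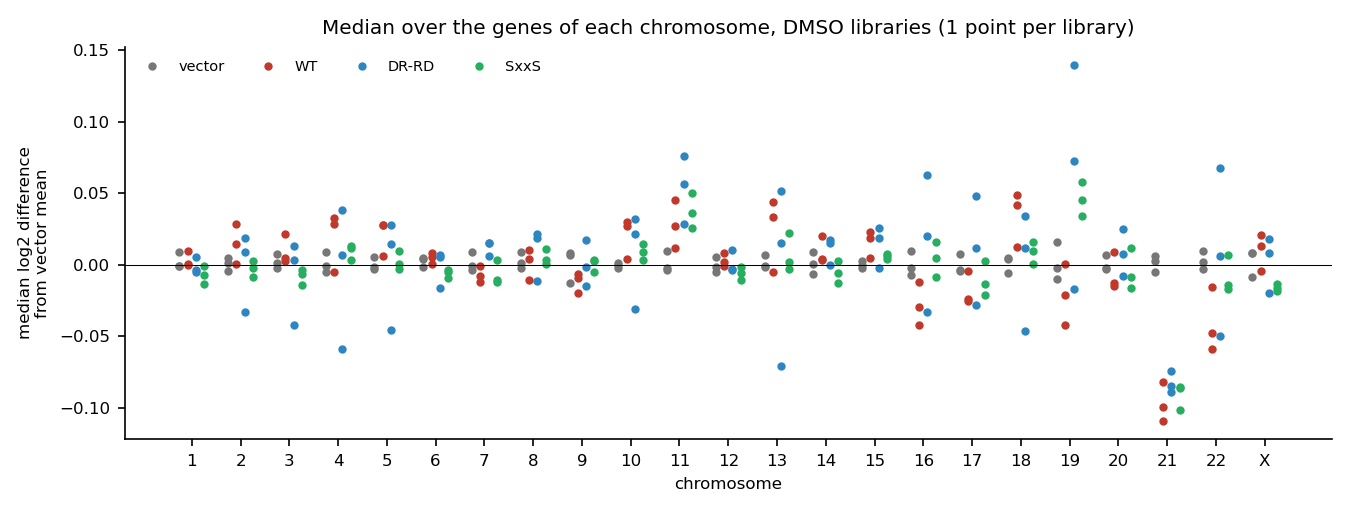
Median log2 difference from the mean of the vector libraries over the genes of each chromosome in the 12 DMSO libraries, with 1 point per library and the 4 cell lines shown by colour. On chromosome 21 all 9 libraries of the complemented lines lie between -0.11 and -0.07 and the 3 vector libraries near 0. Chromosome 11 is the only other one on which all 9 lie beyond every vector library, by a smaller margin.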

How the data were processed

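RNA was measured in 36 libraries of *TXNL1* KO HEK-293T cells, mapped to 12 groups of 3 by their labels. The authors deposited raw counts per gene and library, neither normalized nor pooled. These were made, by the study's own account, with QuasR (function qAlign) from read pairs and GRCh38. The labels' processing notes name DESeq2. Annotation release, strand, and the treatment of mates and of shared reads in counting are not given in the sources used here. The table also holds a gene length column, which was not used, and 0 columns were left unmatched.

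Of 61587 gene identifiers, 61369 matched GENCODE release 44 on GRCh38, which gave symbols, classes, positions, exon overlaps and the GC content of the longest transcript (known for 99.7% of tested genes). Genes with at least 10 counts over the 3 vector DMSO libraries, the study's own filter, were tested with edgeR 4.0.16 in R 4.3.3 (limma 3.58.1): TMM scaling, one mean per group over the 12 DMSO libraries, robust quasi-likelihood dispersions (common biological coefficient of variation 6.55%, prior degrees of freedom with a median of 10.9). Adjusted p-values cover all tested genes (Benjamini-Hochberg). Errors beside log2 fold changes are SE, and n is 3 per group, or 2 for a group with a library left out: WT in H2O2 and arsenite wherever the libraries that stand apart are left out, the 34-library tests and the fits without 1 library. The treated pairs were fitted over the 12 libraries of each treatment. Tests of the difference between treatments, fits with a GC offset in the treated libraries and counts by chromosome were added after the data had been seen. DESeq2 1.42.0 and the other settings were tried as alternatives.

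Genes were named by rule: *TXNL1*, *PSMD1*, *PSMD4*, *PSMD14* and *PITHD1*; called members of the gene lists; and, among called genes with groups that do not overlap and a mean of at least 100 counts in the higher group, the 12 protein-coding genes with the largest rise and fall, the 5 with the smallest adjusted p and the 4 of other classes with the largest change in each direction. The members of the comparison, the lists and the left-out libraries were chosen with earlier results of these data known. The code was tested on simulated counts. Counting error is small at these depths for all but genes near the filter, and replicate libraries of a group differed by more than sampling noise (chi-square over degrees of freedom at least 3.18).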

Additional observations from a re-analysis of the deposited data

Results flagged for a closer look

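The effect of WT TXNL1 differed between H2O2 and DMSO for 252 genes (edgeR's test of the difference itself over 34 libraries, adjusted p under 0.05), 247 of them with a higher value in H2O2. The number was 126 with all 36 libraries and 107 with an offset for GC content. Among named genes the log2 fold change in H2O2 minus that in DMSO was 0.92 for *IFI6*, 2.18 for *PCSK1N*, 1.36 for *C4orf48*, 1.59 for *GRIN3B*, 1.32 for *CFD*, 1.28 for *MIF*, 1.27 for *TUSC1*, 1.45 for *REX1BD* and 0.49 for *PDLIM7*. It was 2.36 for *IER5L-AS1*, 2.16 for *PRKAR2A-AS1*, 1.75 for ENSG00000269371 and 1.86 for ENSG00000245768. All 13 were lower with WT in DMSO and, with WT replicate 2 left out, had values above 0 in H2O2. For *IGFBP2*, *LPL* and *ARNT2* the same test gave 0.17, 0.45 and 0.06 with adjusted p of 0.79, 0.674 and 0.965. The 13 were listed for passing this test and were called lower in the DMSO libraries that it uses. *IGFBP2*, *LPL* and *ARNT2* were among the genes called lower in H2O2 too. These choices favour the contrast between them, so no conclusion is drawn from it.

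Between arsenite and DMSO the test called 6 genes, 3 in each direction, and 0 with all 36 libraries (1938 at an unadjusted p under 0.05 by edgeR) or 17 with the GC offset. They were *MAT2A*, with a difference of 0.36, and 5 genes not called in DMSO, named here after their values were seen. *PPP1R15A*, which encodes a phosphatase subunit of the stress response, had log2 fold changes of 0.24 in DMSO and -0.21 in arsenite, *LRIF1* of 0.16 and -0.31, and *HSPH1*, a chaperone gene, of -0.03 and -0.34. *RRP9* had -0.07 and 0.37 and *DHX37* 0.02 and 0.39.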

How the results depend on the processing

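*TXNL1* was called under all 13 alternatives that tested it and in each fit without 1 compared library (log2 fold change 0.77 to 0.86). None of the 52 genes recomputed, listed by rule or added, changed its direction under a setting that tested it. *IGFBP2*, *LPL*, *ARNT2*, *TSC22D3*, *SERPINF1*, *EMILIN2*, *INSIG1* and *COL6A2* were called in all fits that tested them as well. The fit of genes without exon overlap did not test *TXNL1*, *ARNT2*, *TSC22D3* or *EMILIN2*, whose exons overlap those of other genes. The number of genes was less stable. In place of 184 for WT against vector and 310 for WT against the mutants, DESeq2's test called 493 (95 higher, 398 lower) and 603, no filter 656 and 753, all 36 libraries 44 and 42, and 34 libraries 673 (180 higher, 493 lower) and 788. The 6 compared libraries alone gave 466 for WT against vector, and genes without exon overlap gave 73 of 9617 tested and 106. The GC offset called 180 (36 higher, 144 lower) and 138, and with the replicate block 179 for the latter. The share of higher genes was 10.9%, and 26.7% over 34 libraries. Leaving out 1 library gave 21 to 751 and 25 to 717. Same-numbered vector and WT libraries did not deviate together (r of -0.18, -0.06 and 0.0052). Pairs of unlike number had r between -0.12 and 0.16, and such values cannot show whether samples were handled in pairs. The replicate block gave 251 and 410. Of the 184 genes, 67 had the same sign in H2O2, with 83 when the WT library that stands apart was left out, 90 with the GC offset and 92 with both, and 64 to 83 without 1 library. In arsenite 150 did, with 182 when the library that stands apart was left out, 177 with the GC offset as well, and 121 to 182 without 1 library. Causes of these changes were not tested. A symmetric filter, which also admits genes low in the vector line, gave 181.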

Other observations

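Of 349 windows of 5 Mb, 12 had a median log2 difference beyond 0.04 of the same sign in DMSO, H2O2 and arsenite, 8 higher and 4 lower with WT. Of these, 4 lay on chromosome 11 between 105 and 130 Mb, 3 on chromosome 21 between 35 and 50 Mb and 3 on chromosome 19. The 3 windows of chromosome 21 had medians of -0.08, -0.16 and -0.15 in DMSO. The window of chromosome 19 from 20 to 25 Mb had 0.12 in DMSO, 0.06 in H2O2 and 0.08 in arsenite, and that from 50 to 55 Mb, with 62 genes, had 0.09, 0.07 and 0.07. The single windows elsewhere were on chromosome 20 from 50 to 55 Mb, at 0.05 in DMSO, and on chromosome 6 from 165 Mb, at -0.06.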
